A study of Mus musculus with 90 samples.

Results

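The gene set is made of 10 genes whose products carry or terminate ITAM and ITIM signalling around the myeloid receptor CD33: Tyrobp, Fcer1g, Syk, Ptpn6, Ptpn11, Fcgr1, Fcgr2b, Fcgr3, Vav1 and Btk. Every probe whose platform gene symbol was one of these names was taken. That gave 14 of the 25697 probes on the Illumina mouse bead array, for 9 of the 10 genes, since no probe carried the symbol Syk. A probe was kept for testing when its detection p-value was under 0.01 on at least 9 arrays, and 12 of the 14 probes passed, for 8 genes. They were among 14081 kept probes. The probe for Btk, a kinase, was detected on 8 of 90 arrays and fell short, and 1 of 3 probes for Fcgr2b was detected on 0 of 90 arrays.

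RNA came from APP/PS1 mice, which carry transgenes of familial Alzheimer disease and form amyloid plaques, so every group had both transgenes. An antisense oligonucleotide (ASO, a short strand that binds a transcript and leads to its loss) directed at Cd33, or a non-targeting one labelled CON ASO, was pumped into the right lateral ventricle at 40 µg per day. The pump was placed when the mice were 18 weeks old and ran for 14 or 28 days, and the left hemisphere was sampled at 22 weeks in all groups. Because the pump was taken out after 14 days in the shorter arm, the length of infusion and the time since it ended cannot be told apart. In frontal cortex there were 9 arrays of CD33 ASO 14 d, 9 of CON ASO 14 d, 14 of CD33 ASO 28 d and 14 of CON ASO 28 d. In hippocampus there were 9 of CD33 ASO 14 d, 9 of CON ASO 14 d, 13 of CD33 ASO 28 d and 13 of CON ASO 28 d. The 90 arrays came from 47 animals, of which 43 gave both tissues, and each array of a group was a separate animal. No wild-type or uninfused mice were analysed here.

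An ITAM is a short tyrosine motif in the tail of an adaptor or receptor that is phosphorylated by Src family kinases when the receptor is engaged. It then recruits the kinase Syk, which passes the signal to Btk, Vav1 and other effectors. CD33 is a sialic acid receptor. In the human protein, ITIM-type motifs in the tail recruit the phosphatases SHP-1 and SHP-2, which remove phosphate from the same pathway. Whether mouse CD33 signals in this way was not tested. In the brain most of these genes are used by microglia, the resident macrophages, while SHP-2 is made by most cells.

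Median signal per array lay between 28.4 and 47.0 on the linear scale, and between 42.8% and 51.6% of probes were detected. Arrays sat on 12 chips, each with 1 tissue and all 4 treatment groups. The 3 hippocampus markers were lower in frontal cortex and the 3 neocortex markers were higher there, as the tissue labels state. Several arrays stood apart and are named beside the results they touch. Animal 7 carries the CD33 ASO 28 d label, but its Cd33 log2 intensity was 6.83 in frontal cortex and 6.58 in hippocampus, inside the range of CON ASO arrays. In animal 28, also CD33 ASO 28 d, the hippocampal array had the highest Fcer1g, Fcgr2b, Ptpn6 and Vav1 and the highest summed microglia markers of all 44 hippocampal arrays. In animal 15, CON ASO 28 d, the neutrophil gene S100a8 reached 10.63 in frontal cortex and 10.58 in hippocampus, against at most 6.25 and 6.03 in the other animals of its group.

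The start regions of the genes are shown for a pair with r above 0.7 in both tissues (Fcer1g and Fcgr2b), for the single member with 2 different motifs (Fcgr1) and for the member whose levels followed the others least (Ptpn11). They are 300 bases each, from RefSeq on GRCm38.p6, written 5′ to 3′ in the direction of the gene, from 250 bases before to 50 bases after its start. Capitals mark 2 motifs searched on both strands, the PU box GAGGAA, a core site of the myeloid factor PU.1, and the interferon gamma site TTCNNNGAA. The motifs do not overlap in the windows shown. Fcer1g lies at chr1:171234300-171234599 on the minus strand and Fcgr2b at chr1:170976022-170976321 on the minus strand. Fcgr1 lies at chr3:96293920-96294219 on the minus strand and Ptpn11 at chr5:121191348-121191647 on the minus strand.
Fcer1g: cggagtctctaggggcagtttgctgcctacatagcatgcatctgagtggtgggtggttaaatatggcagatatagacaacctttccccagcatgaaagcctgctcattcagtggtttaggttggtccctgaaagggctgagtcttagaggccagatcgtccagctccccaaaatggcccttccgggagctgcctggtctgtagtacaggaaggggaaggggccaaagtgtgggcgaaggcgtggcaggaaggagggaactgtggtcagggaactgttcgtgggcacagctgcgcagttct
Fcgr2b: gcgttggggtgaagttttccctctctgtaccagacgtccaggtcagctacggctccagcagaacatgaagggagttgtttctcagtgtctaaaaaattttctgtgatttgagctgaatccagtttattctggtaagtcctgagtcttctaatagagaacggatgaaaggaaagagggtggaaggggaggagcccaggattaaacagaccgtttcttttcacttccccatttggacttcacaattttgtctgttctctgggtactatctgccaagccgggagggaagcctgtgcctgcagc
Fcgr1: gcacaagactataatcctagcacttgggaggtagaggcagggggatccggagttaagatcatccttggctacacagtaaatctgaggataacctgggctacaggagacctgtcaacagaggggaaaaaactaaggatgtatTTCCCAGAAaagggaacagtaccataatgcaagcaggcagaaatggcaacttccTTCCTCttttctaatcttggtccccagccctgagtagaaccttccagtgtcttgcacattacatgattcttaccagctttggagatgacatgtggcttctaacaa
Ptpn11: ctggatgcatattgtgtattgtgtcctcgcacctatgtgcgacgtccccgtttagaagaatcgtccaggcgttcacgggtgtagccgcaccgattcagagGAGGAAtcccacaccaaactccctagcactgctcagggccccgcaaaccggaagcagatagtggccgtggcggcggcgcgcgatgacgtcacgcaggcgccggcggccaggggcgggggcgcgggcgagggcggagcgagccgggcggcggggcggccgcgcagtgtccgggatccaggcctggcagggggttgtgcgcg
Neither Fcer1g nor Fcgr2b held a match in this window. Fcgr1 held 1 PU box on the strand opposite to the one printed and 1 interferon gamma site, and Ptpn11 held 1 PU box. Of the 9 members with a window in the table, 6 had a PU box in at least 1 window (Btk, Fcgr1, Fcgr3, Ptpn11, Syk and Vav1) and 1 had an interferon gamma site. Among 32851 windows of the same length, 28.3% held a PU box and 8.3% an interferon gamma site. These shares are per window, while the members were counted per gene over 11 windows, so the 2 are not in the same unit. A match in these letters is a description of the window and not of binding.

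No difference in signalling partner levels between CD33 ASO and CON ASO passed the test, and a lack of effect was not tested. At 28 days the confidence intervals of the members' log2 fold changes reached -0.57 in frontal cortex and 0.58 in hippocampus. The targeted transcript itself was called lower in frontal cortex at 28 days and in hippocampus at both times. In frontal cortex at 14 days it was also lower but missed the threshold. Of the 12 member probes, 0 passed the test in any of the 4 comparisons of CD33 ASO with CON ASO. Differences were called between the tissues: all 7 tested members other than Ptpn11 were higher in frontal cortex than in hippocampus, Tyrobp the most. Within a group, most members rose and fell together from animal to animal, and most followed the microglia markers. Tyrobp in frontal cortex and Ptpn11 in both tissues went with fewer of the other members, and Vav1 in frontal cortex and Ptpn11 in both tissues did not pass with the microglia markers.

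The targeted gene was read by 1 kept probe, detected on 42 of 46 frontal cortex and 25 of 44 hippocampus arrays. In CD33 ASO hippocampus it was detected on 2 of 9 arrays at 14 days and 1 of 13 at 28 days, so those levels lie near background. In frontal cortex its log2 intensity had a lowest, median and highest value of 4.97, 6.09 and 6.83 in CD33 ASO 28 d animals, against 6.37, 6.99 and 7.37 in CON ASO 28 d animals. In hippocampus these were 4.64, 4.95 and 6.58 in CD33 ASO 28 d animals, against 6.38, 6.57 and 6.86 in CON ASO 28 d animals. Of the CD33 ASO 28 d animals, 11 of 14 in frontal cortex and 12 of 13 in hippocampus lay below every control. The log2 fold change of CD33 ASO over CON ASO was -0.90 ± 0.13 (SE) in frontal cortex (limma, adjusted p = 5.44e-05) and -1.46 ± 0.14 in hippocampus (limma, adjusted p = 7.44e-09). After 14 days it was -0.69 ± 0.17 in frontal cortex (limma, adjusted p = 0.382, which misses the threshold) and -1.29 ± 0.17 in hippocampus (limma, adjusted p = 3.89e-05). Of the CD33 ASO 14 d animals, 8 of 9 in frontal cortex and 9 of 9 in hippocampus lay below every control.

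Of the 12 member probes, 0 passed an adjusted p of 0.05 in frontal cortex at 28 days, where 0.348% of the 14081 kept probes did (49 probes). In hippocampus at 28 days 0 of 12 passed, beside 0.320% of all probes (45 probes). At 14 days 0 of 12 passed in frontal cortex, beside 0% of all probes, and 0 of 12 in hippocampus, beside 0.0142% (2 probes). With so few probes called in all, a count of 0 among 12 lies near the background. At an unadjusted p under 0.05, 0 of 12 member probes were past the line in each of the 4 comparisons, against 8.54% of all probes in frontal cortex at 28 days, 8.88% in hippocampus at 28 days, 5.47% in frontal cortex at 14 days and 5.69% in hippocampus at 14 days.

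The sizes were small throughout. In frontal cortex the members' log2 fold changes lay between -0.26 and 0.03 at 28 days (median -0.06, 11 of 12 below 0) and between -0.18 and 0.09 at 14 days (median -0.08, 8 of 12 below 0). In hippocampus they lay between -0.28 and 0.21 at 28 days (median 0.02, 5 of 12 below 0) and between -0.09 and 0.18 at 14 days (median -0.01, 7 of 12 below 0). Over all kept probes the medians were 0.00 in each frontal cortex comparison and 0.01 or less in each hippocampus comparison, and 48.1% of probes were below 0 in frontal cortex at 28 days. The 95% intervals of the 12 probes stayed between -0.57 and 0.19 in frontal cortex at 28 days and between -0.56 and 0.58 in hippocampus at 28 days. Averaged over both durations, 0 of 12 passed in frontal cortex, beside 0.604% of all probes, and 0 of 12 in hippocampus, beside 0.504%. The lowest unadjusted p-values were in frontal cortex, for Fcgr3 (-0.13 ± 0.06, limma, adjusted p = 0.407) and Vav1 (-0.10 ± 0.05, limma, adjusted p = 0.423). These were the 2 of 12 member probes under an unadjusted p of 0.05 there, beside 11.1% of all probes. In hippocampus there were 0 of 12, beside 8.83%.

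**Figure D1:**
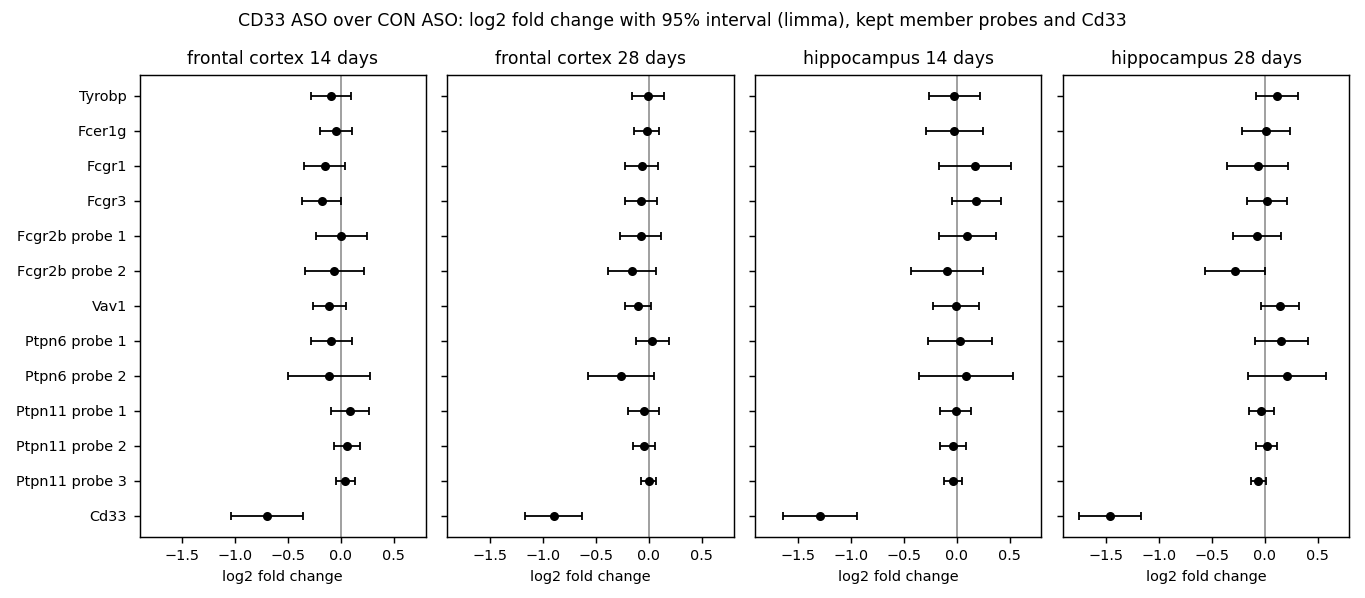
Log2 fold change of CD33 ASO over CON ASO (x axis) for the 12 kept member probes and Cd33 (rows) in each tissue and duration, points with 95% intervals from limma; probes of 1 gene are numbered. The member probes cluster around 0 with intervals that include it, while Cd33 lies between -0.69 and -1.46.

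Among the adaptors, Tyrobp (DAP12) is the ITAM partner of TREM2 and other myeloid receptors that lack a signalling tail. In frontal cortex its log2 intensity had a lowest, median and highest value of 10.09, 10.62 and 11.04 in CD33 ASO 28 d animals, against 10.36, 10.63 and 10.87 in CON ASO 28 d animals. In hippocampus these were 9.42, 9.77 and 10.15 in CD33 ASO 28 d animals, against 9.16, 9.70 and 10.05 in CON ASO 28 d animals. The groups overlapped in both tissues: in frontal cortex 2 of 14 CD33 ASO animals lay below and 2 above every control, and in hippocampus 3 of 13 lay above every control. The log2 fold change was -0.01 ± 0.07 in frontal cortex (limma, adjusted p = 0.993) and 0.11 ± 0.10 in hippocampus (limma, adjusted p = 0.815).

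Fcer1g encodes the FcR gamma chain, the ITAM adaptor of the activating Fc receptors. At 28 days in frontal cortex its lowest, median and highest log2 intensities were 11.61, 11.94 and 12.16 in CD33 ASO animals, against 11.68, 11.95 and 12.16 in CON ASO animals. In hippocampus they were 10.74, 11.25 and 12.65 in CD33 ASO animals, against 11.11, 11.36 and 11.64 in CON ASO animals. The CD33 ASO animals of the hippocampus held both the lowest and the highest Fcer1g, and their SD was 0.46, against 0.17 in the CON ASO animals. The highest value is the hippocampal array of animal 28, and the others of its group lay between 10.74 and 11.61. Fold changes were -0.02 ± 0.06 in frontal cortex and 0.01 ± 0.11 in hippocampus on the log2 scale, and -0.09 in hippocampus without animal 28, none of them past the test.

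**Figure D2:**
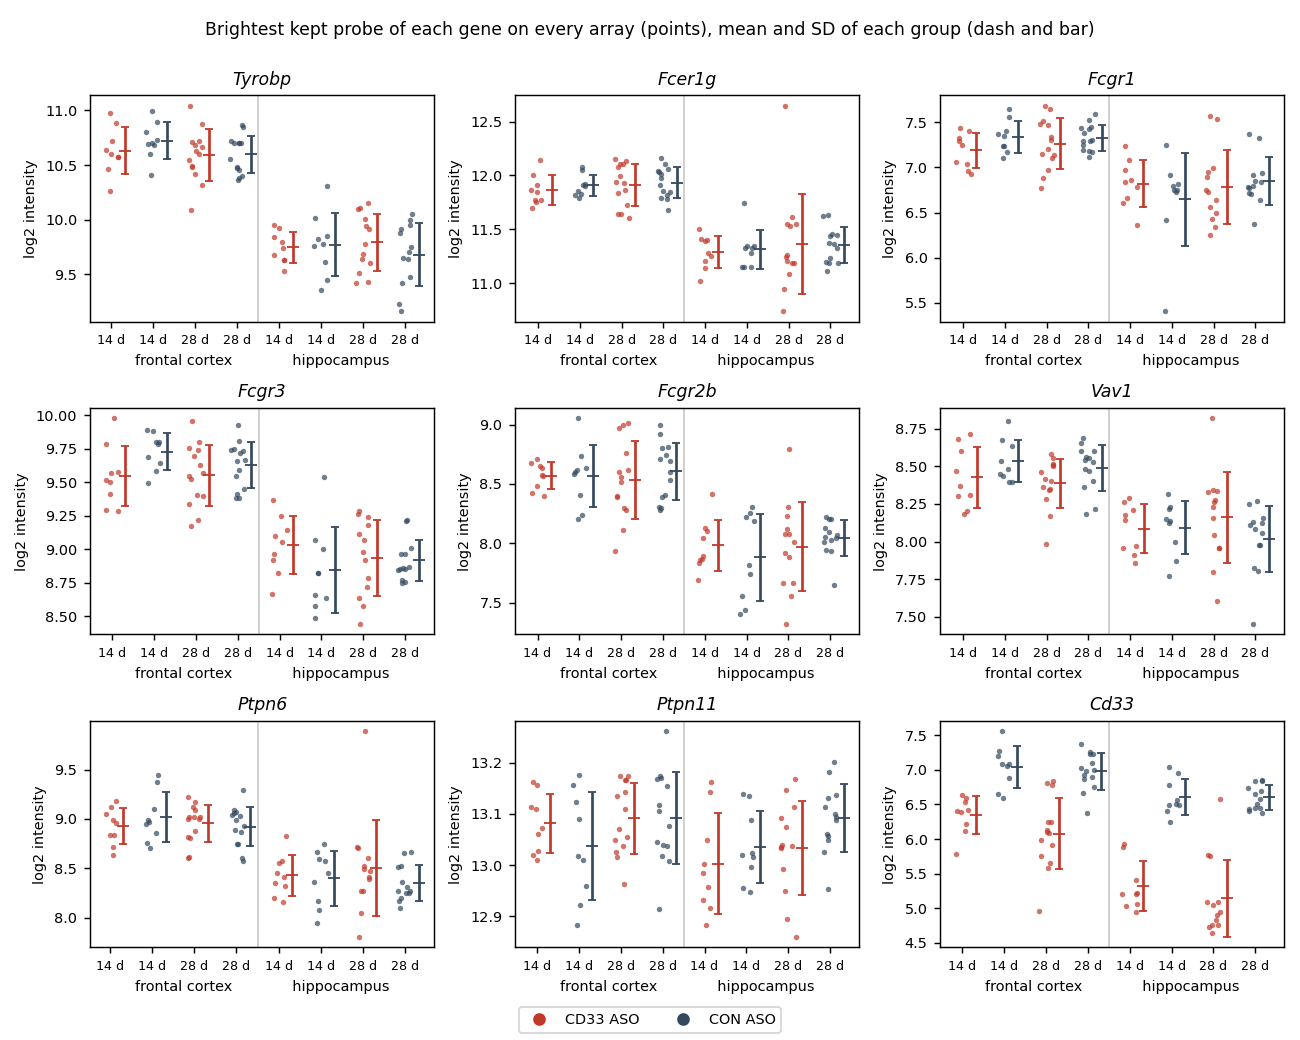
Log2 intensity (y axis) of the brightest kept probe of the 8 tested members and of Cd33 on each of the 90 arrays, by tissue and days of infusion, CD33 ASO left of CON ASO at each time, with the mean and SD of each group. Group means of Cd33 are lower with CD33 ASO than with CON ASO in each tissue and duration, with some overlap of arrays. Those of Tyrobp, Fcer1g, Fcgr1, Fcgr3, Fcgr2b, Vav1 and Ptpn6 are higher in frontal cortex than in hippocampus, with overlapping ranges. The Ptpn11 panel shows little of either.

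The Fc receptors bind antibody. Fcgr1 encodes the high-affinity activating receptor, and its lowest, median and highest log2 intensities in frontal cortex were 6.77, 7.25 and 7.69 in CD33 ASO 28 d animals, against 7.12, 7.30 and 7.60 in CON ASO 28 d animals. In hippocampus they were 6.25, 6.73 and 7.57 in CD33 ASO 28 d animals, against 6.38, 6.79 and 7.37 in CON ASO 28 d animals. In both tissues the controls lay inside the range of the CD33 ASO animals. Its fold changes at 28 days were -0.07 ± 0.08 in frontal cortex and -0.07 ± 0.14 in hippocampus on the log2 scale, or -0.13 in hippocampus without animal 28.

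Fcgr3, a low-affinity activating receptor that signals through the FcR gamma chain, gave the lowest unadjusted p among the members at 14 days. In frontal cortex its lowest, median and highest log2 intensities were 9.29, 9.52 and 9.98 in CD33 ASO 14 d animals, against 9.50, 9.79 and 9.89 in CON ASO 14 d animals. In hippocampus they were 8.67, 9.05 and 9.37 in CD33 ASO 14 d animals, against 8.49, 8.83 and 9.54 in CON ASO 14 d animals. The medians lay in opposite order in the 2 tissues, and the groups overlapped in both. Fold changes on the log2 scale were -0.18 ± 0.09 in frontal cortex (limma, adjusted p = 0.894) and 0.18 ± 0.11 in hippocampus (limma, adjusted p = 0.912). The difference between the tissues' ASO effects, tested directly and averaged over durations, was -0.23 ± 0.09 for Fcgr3 (limma, adjusted p = 0.649). For this difference 0 of 12 members and 0% of all probes were past the threshold. At an unadjusted p under 0.05 there were 2 of 12, Fcgr3 and Vav1, beside 6.99% of all probes. At 28 days Fcgr3 had fold changes of -0.07 ± 0.07 in frontal cortex and 0.02 ± 0.10 in hippocampus, the second of which was -0.0038 without animal 28.

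Fcgr2b is the inhibitory Fc receptor, which carries an ITIM and acts through phosphatases. Its brighter probe had lowest, median and highest log2 intensities of 7.94, 8.54 and 9.02 in frontal cortex of CD33 ASO 28 d animals, against 8.28, 8.65 and 9.00 in CON ASO 28 d animals. In hippocampus these were 7.32, 8.01 and 8.79 in CD33 ASO 28 d animals, against 7.65, 8.06 and 8.22 in CON ASO 28 d animals. Again the CD33 ASO animals spanned the controls. Its dimmer kept probe was detected in 8 of 13 CD33 ASO 28 d and 11 of 13 CON ASO 28 d hippocampi, where its fold change was -0.28 ± 0.14 (limma, adjusted p = 0.573), the largest among the members. The brighter probe read -0.08 ± 0.11 in the same comparison and -0.14 without animal 28, so that the size differed between probes.

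Vav1 encodes a guanine nucleotide exchange factor that acts downstream of Syk. In frontal cortex its lowest, median and highest log2 intensities were 7.98, 8.41 and 8.58 in CD33 ASO 28 d animals, against 8.18, 8.54 and 8.69 in CON ASO 28 d animals. In hippocampus they were 7.60, 8.23 and 8.82 in CD33 ASO 28 d animals, against 7.45, 8.09 and 8.27 in CON ASO 28 d animals. In hippocampus 5 of 13 CD33 ASO animals lay above every control, and in frontal cortex at 14 days 5 of 9 lay below every control. There the group means of Vav1 were 8.43 with CD33 ASO and 8.53 with CON ASO, a difference that did not pass the test. For Fcer1g and Fcgr1 4 of 9 each lay below every control in that comparison. The fold changes at 28 days were -0.10 ± 0.06 in frontal cortex (limma, adjusted p = 0.714) and 0.15 ± 0.09 in hippocampus (limma, adjusted p = 0.689), or 0.09 in hippocampus without animal 28. Btk, the Tec family kinase activated beside Vav1, was near background: 3 CD33 ASO arrays and 5 CON ASO arrays detected it. Tested without the detection filter, its ASO effects lay between -0.17 and 0.09 and 0 of 4 passed.

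Of the phosphatases, Ptpn6 (SHP-1) is made mainly by blood and myeloid cells. Its brighter probe had lowest, median and highest log2 intensities of 8.60, 9.01 and 9.22 in frontal cortex of CD33 ASO 28 d animals, against 8.57, 8.96 and 9.30 in CON ASO 28 d animals. In hippocampus these were 7.80, 8.47 and 9.89 in CD33 ASO 28 d animals, against 8.10, 8.27 and 8.66 in CON ASO 28 d animals. As for Fcer1g, the hippocampal array of animal 28 was the highest, and the other CD33 ASO 28 d hippocampi reached at most 8.72. The fold changes were 0.03 ± 0.08 in frontal cortex and 0.16 ± 0.12 in hippocampus (limma, adjusted p = 0.782), the second of which was 0.04 without animal 28. The dimmer Ptpn6 probe was detected on 43 of 46 frontal cortex and 19 of 44 hippocampus arrays. It peaked in both tissues in animal 40 (CON ASO 28 d), at 8.30 in frontal cortex and 7.66 in hippocampus, while the brighter Ptpn6 probe read 8.57 in frontal cortex of that animal, the lowest of its group. Its fold changes at 28 days, -0.26 ± 0.15 in frontal cortex and 0.21 ± 0.18 in hippocampus, had wider errors than those of the brighter probe and did not pass the test, and the hippocampus value was 0.11 without animal 28.

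Ptpn11 (SHP-2), the widely expressed partner phosphatase, had 3 kept probes, all detected on 90 of 90 arrays. The brightest had lowest, median and highest log2 intensities of 12.96, 13.09 and 13.17 in frontal cortex of CD33 ASO 28 d animals, against 12.91, 13.09 and 13.26 in CON ASO 28 d animals. In hippocampus these were 12.86, 13.04 and 13.17 in CD33 ASO 28 d animals, against 12.95, 13.09 and 13.20 in CON ASO 28 d animals. It was the tightest of the members, with an SD within groups of 0.08 in each tissue, about 5.7% of the level. The fold changes of the 3 probes at 28 days lay between -0.05 and 0.00 in frontal cortex and between -0.06 and 0.02 in hippocampus.

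Other genes of the pathway were counted in lists, 1 probe per gene. Among ITAM-linked receptors and adaptors 0 of 8 tested genes passed in any of the 4 ASO comparisons. Those with the lowest p were Fcgr4, an activating Fc receptor (0.46 ± 0.17 in frontal cortex at 28 days, limma, adjusted p = 0.374), and Cd79b, a chain of the B cell receptor (0.26 ± 0.10 there, limma, adjusted p = 0.413). Among ITIM-type inhibitory receptors Cd33 alone passed of 4 tested, in the 3 comparisons named above, and 0 of 4 passed in frontal cortex at 14 days. Among kinases, adaptors and phosphatases downstream 0 of 23 passed in any of the 4. The lowest p there belonged to the adaptor Sla (0.29 ± 0.09 in hippocampus at 28 days, limma, adjusted p = 0.192) and the kinase Tec (0.25 ± 0.09 in frontal cortex at 28 days, limma, adjusted p = 0.367).

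Cell type markers give the setting. Of 10 microglia markers 0 passed in any ASO comparison, and their summed log2 level at 28 days spanned 13.69 to 14.18 in CD33 ASO and 13.87 to 14.24 in CON ASO frontal cortex, and 12.99 to 14.03 in CD33 ASO and 13.26 to 13.66 in CON ASO hippocampus. Itgam had no kept probe. Border macrophage markers did move with the ASO: 3 of 4 were lower in hippocampus at 28 days (Ms4a7 -1.08 ± 0.21, Cbr2 -0.79 ± 0.14, Mrc1 -0.73 ± 0.13) and Ms4a7 alone in frontal cortex at 28 days (-0.82 ± 0.14). At 14 days 0 of 4 passed in each tissue. Their summed log2 level at 28 days was 7.61 to 8.84 in CD33 ASO and 8.61 to 9.61 in CON ASO hippocampus, and 8.20 to 9.14 in CD33 ASO and 8.72 to 9.44 in CON ASO frontal cortex, and Cd163, F13a1 and Lyve1 had no kept probe. Their part in the members' values was not tested, and in pieces of tissue fewer cells of a type and less RNA per cell cannot be told apart. Markers of B cells (1 tested), T and NK cells (3), neutrophils (1), red blood cells (2) and choroid plexus (5) gave 0 calls in the 4 ASO comparisons, and no mast cell marker of 4 with a probe was kept.

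The duration of infusion made no call either. Comparing 28 d with 14 d, 0 of 12 member probes passed in CD33 ASO frontal cortex (0% of all probes), CON ASO frontal cortex (0%), CD33 ASO hippocampus (0%) and CON ASO hippocampus (0.0426%). At an unadjusted p under 0.05, 1 of 12 member probes, of Ptpn11, was past the line in each hippocampus comparison and 0 in each frontal cortex comparison. Over all probes the share was 9.72% in CD33 ASO and 11.2% in CON ASO hippocampus, so that 1 of 12 lies near it. In frontal cortex the share was 4.87% in CD33 ASO and 4.47% in CON ASO. The members' log2 differences lay between -0.13 and 0.20 over these 4 comparisons. The ASO effect at 28 days minus that at 14 days gave 0 of 12 in frontal cortex and 0 of 12 in hippocampus, with 0% of all probes past the threshold in each. At an unadjusted p under 0.05 there were 0 of 12 members in each, beside 2.79% of all probes in frontal cortex and 4.49% in hippocampus.

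Between tissues the members parted from the background in direction. Of the 12 probes 9 were higher in frontal cortex, beside 33.0% of all kept probes, and 1 was lower, beside 40.3%. In all 10 of 12 were called, beside 73.3% of all probes. The split over all probes depends on the scaling: 4653 were higher and 5675 lower, against 6397 higher and 3528 lower with the authors' processed values, where 9 of the 12 member probes above kept their direction and call and Ptpn11 did not. The 9 higher probes are all those of the 7 tested members other than Ptpn11. The members' median log2 fold change of frontal cortex over hippocampus was 0.55, against -0.03 over all probes. Each chip held 1 tissue, so the comparison is also one between chips. The fit with chip as a random block, in place of animal, covers the spread among chips of a tissue. It cannot tell a difference between the sets of chips from one between the tissues.

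Tyrobp differed most, with lowest, median and highest log2 intensities of 10.09, 10.65 and 11.04 over the 46 frontal cortex arrays, against 9.16, 9.76 and 10.31 over the 44 hippocampus arrays. The ranges overlapped only between 10.09 and 10.31, and frontal cortex was higher in 43 of 43 animals with both tissues. The fold change was 0.89 ± 0.05 on the log2 scale, or 1.85-fold (limma with animal as a random block, adjusted p = 1.88e-31), and 0.89 ± 0.06 with chip as a random block in its place.

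Fcer1g had lowest, median and highest values of 11.61, 11.91 and 12.16 in frontal cortex, against 10.74, 11.30 and 12.65 in hippocampus. Frontal cortex was higher in 42 of 43 animals, and animal 28, with 12.16 in frontal cortex and 12.65 in hippocampus, was the exception. The fold change was 0.57 ± 0.05, or 1.49-fold, and 0.60 ± 0.04 without animal 28. Tyrobp and Fcer1g are the ITAM adaptors of the set, and both were called under every alternative tried.

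The Fc receptors followed. Fcgr3 ran at 9.18, 9.61 and 9.98 (lowest, median, highest) in frontal cortex, against 8.44, 8.92 and 9.54 in hippocampus, and was higher in frontal cortex in 43 of 43 animals. Its fold change was 0.68 ± 0.04, or 1.60-fold. The 2 kept probes of Fcgr2b gave 0.60 ± 0.05 and 0.71 ± 0.07, each higher in 43 of 43 animals, and Fcgr1 gave 0.51 ± 0.06 with 40 of 43 animals. The activating and the inhibitory receptors thus shared the direction. Vav1 showed the smallest difference of the called myeloid members, 0.37 ± 0.04 on the log2 scale (1.29-fold), with 41 of 43 animals higher in frontal cortex. Btk, tested without the detection filter, gave 0.25 ± 0.06 (limma, adjusted p = 3.65e-04), higher in 32 of 43 animals.

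The phosphatases parted. The 2 probes of Ptpn6 gave 0.53 ± 0.05 (42 of 43 animals) and 0.57 ± 0.09 (38 of 43 animals). The 3 probes of Ptpn11 gave 0.03 ± 0.02 (limma, adjusted p = 0.0745), -0.03 ± 0.03 (limma, adjusted p = 0.274) and -0.09 ± 0.03 (limma, adjusted p = 0.018), with frontal cortex higher in 25, 15 and 13 of 43 animals. The lower call of the last probe was lost with chip as a random block (-0.08 ± 0.05, limma, adjusted p = 0.0988) and with the authors' processed values (-0.01 ± 0.03, limma, adjusted p = 0.764), and the other probes moved with the scaling. The first was called higher with the authors' processed values (0.10 ± 0.02), and it read -0.02 with median scaling. The second was called lower with median scaling (-0.07 ± 0.02) and read 0.04 with the authors' processed values. All 3 intervals lay between -0.16 and 0.07.

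**Figure D3:**
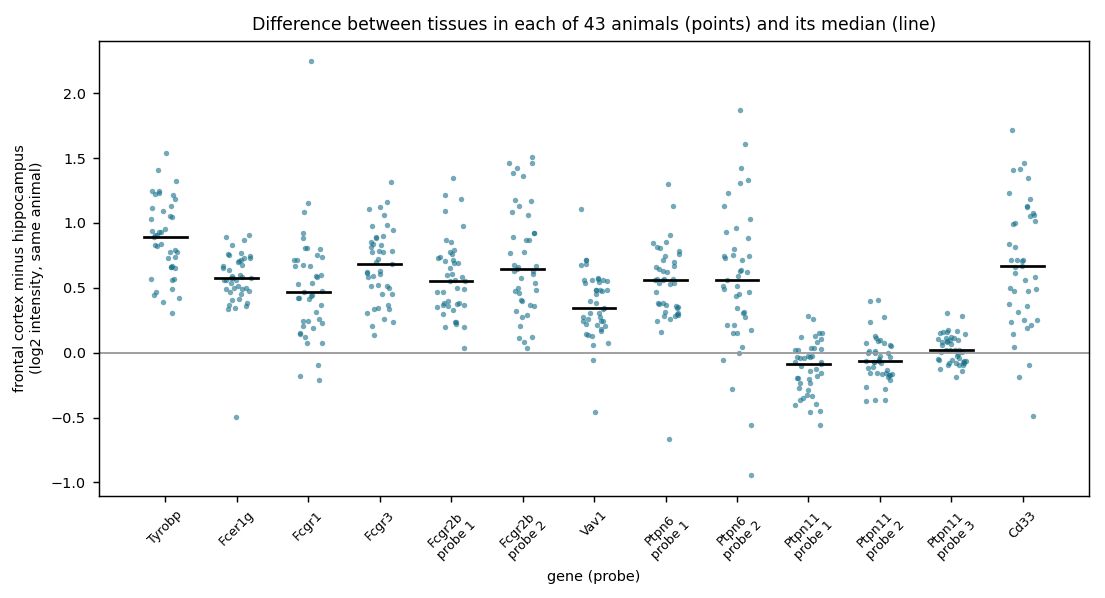
Frontal cortex minus hippocampus (y axis, log2 intensity) in each of 43 animals with both tissues, for the 12 kept member probes and Cd33 (x axis), with the median as a line. The medians of the myeloid members lie between 0.34 and 0.90, and those of the 3 Ptpn11 probes between -0.09 and 0.02.

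The other pathway genes moved the same way more often than not. Of 8 ITAM-linked receptors and adaptors 5 were higher in frontal cortex and 0 lower, among them Clec7a, the beta-glucan receptor dectin-1 (1.89 ± 0.10), and Trem2, the lipid receptor that pairs with Tyrobp (0.87 ± 0.04). Of 4 ITIM-type receptors 3 were higher, Cd33 (0.69 ± 0.07), Lilrb4a (0.48 ± 0.06) and Sirpa (0.32 ± 0.04). The Cd33 value averages over the CD33 ASO groups, whose hippocampal levels lie near background. With CON ASO at 28 days its mean was 6.98 in frontal cortex and 6.60 in hippocampus. With CD33 ASO at 28 days these means were 6.08 and 5.15, farther apart. Of 23 downstream genes 16 were higher and 5 lower, with Sla highest (0.82 ± 0.04) and Vav3 lowest (-0.50 ± 0.03). All 10 microglia markers were higher, by 0.34 to 1.11 with a median of 0.61, a range that holds the values of the 7 tested members other than Ptpn11. Of the other marker lists, 3 of 4 for border macrophages, 3 of 3 for T and NK cells and 2 of 2 for red blood cells were higher in frontal cortex, and 5 of 5 for choroid plexus were lower there. The part of cell number or dissection in the members' difference was not tested.

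Within groups, the members varied together. Each array's deviation from its group mean was correlated between members, with the brightest kept probe per gene, in 46 frontal cortex and 44 hippocampus arrays. With Cd33 and the mean of the microglia markers this made 88 relations, and permutation p-values (100000 resamples, 2-sided) were adjusted over all of them. In frontal cortex 16 of 28 pairs of members passed (median Pearson r = 0.37), and in hippocampus 24 of 28 (median r = 0.53). The median r of a member with all other genes lay between -0.04 and 0.03. With chip means removed as well, 19 of 28 passed in frontal cortex and 23 of 28 in hippocampus. Without animal 28, 16 of 28 passed in frontal cortex (median r = 0.38) and 21 of 28 in hippocampus (median r = 0.44).

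Fcer1g and Fcgr2b, whose start regions are printed above, formed the closest pair in frontal cortex. Pearson's r was 0.75 in frontal cortex and 0.74 in hippocampus (permutation p = 1e-05 in each, the smallest 100000 resamples give, adjusted p = 6.29e-05). Spearman's rho was 0.77 in frontal cortex and 0.70 in hippocampus (permutation p = 1e-05 in each), and r was 0.76 and 0.60 without the 2 arrays farthest from the median of Fcer1g. Fcer1g and Ptpn6 were closest in hippocampus, with r = 0.88 and rho = 0.72 (permutation p = 1e-05 in each), and r = 0.71 without the 2 farthest arrays, 1 of which is animal 28. In frontal cortex the same pair had r = 0.58 (permutation p = 3e-05) and rho = 0.58 (permutation p = 3e-05).

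Tyrobp stood apart from the other adaptor by tissue. With Fcer1g it had r = 0.19 and rho = 0.18 in frontal cortex (permutation p = 0.201 for r and 0.244 for rho), and r = 0.55 and rho = 0.58 in hippocampus (permutation p = 2e-05 for r and 9e-05 for rho). In frontal cortex Fcgr3 was the single member with which Tyrobp passed on r (r = 0.36, permutation p = 0.0137, adjusted p = 0.0241). The rho of that pair was 0.32 and missed the threshold (permutation p = 0.0322, adjusted p = 0.0545). In hippocampus Tyrobp passed on r with all but Ptpn11, while its rho with Vav1 missed (permutation, adjusted p = 0.0826). The difference between tissues was not tested. Ptpn11 passed on r with 1 of 7 members in frontal cortex (Fcgr2b) and with 3 of 7 in hippocampus (Fcer1g, Fcgr1 and Fcgr3). Its rho with Fcer1g in hippocampus missed the threshold (permutation, adjusted p = 0.0983).

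With the mean of the 10 microglia markers, 6 of 8 members passed on r in frontal cortex and 7 of 8 in hippocampus. The rho of Fcgr2b in frontal cortex missed the threshold (permutation, adjusted p = 0.0551). Fcer1g was highest in both, with r = 0.64 and rho = 0.56 in frontal cortex (permutation p = 1e-05 for r and 8e-05 for rho) and r = 0.70 and rho = 0.71 in hippocampus (permutation p = 1e-05 in each). Ptpn11 was lowest in both, with r = 0.10 in frontal cortex and 0.27 in hippocampus, neither past the test. With Cd33 itself, 0 of 8 members passed in frontal cortex and 1 of 8 in hippocampus, Fcgr3 (r = -0.34, permutation p = 0.0254, adjusted p = 0.0414, rho = -0.37, permutation p = 0.0137). The Cd33 probe was detected on 25 of 44 hippocampus arrays, so part of its deviations there lies near background. Without animal 7, or without animal 28, 0 of 8 passed in hippocampus.

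**Figure D4:**
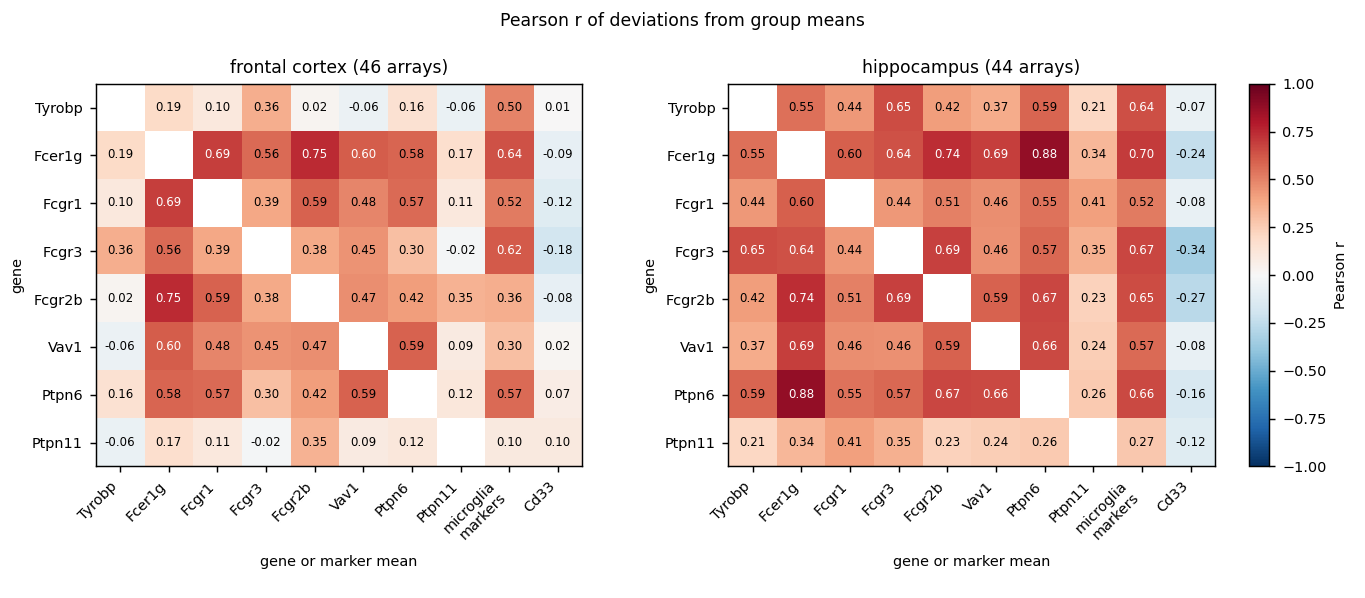
Pearson r of deviations from group means between the 8 tested members (rows) and the members, the microglia marker mean and Cd33 (columns), in 46 frontal cortex and 44 hippocampus arrays; colour gives r from -1 to 1. Fcer1g and Fcgr2b reach 0.75 and 0.74, the Tyrobp row is paler in frontal cortex than in hippocampus, and the Cd33 column lies near 0 or below.

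An animal's level in frontal cortex went with its level in hippocampus for part of the set. Over 43 animals Fcer1g had r = 0.60 (permutation p = 1e-05, adjusted p = 0.0001) and rho = 0.59 (permutation p = 2e-05), and r = 0.57 without the 2 farthest animals and 0.64 without animal 28. With chip means removed r was 0.52 (permutation p = 0.00061), while rho fell to 0.36 (permutation p = 0.018, adjusted p = 0.0474). Fcgr2b (r = 0.43, permutation p = 0.00455, rho = 0.42, permutation p = 0.00555) and Ptpn6 (r = 0.39, permutation p = 0.00849, rho = 0.32, permutation p = 0.0398) also passed an adjusted p of 0.05 on r, over 10 relations, the 8 members, Cd33 and the microglia marker mean, while the rho of Ptpn6 missed it (adjusted p = 0.0796). Without the 2 farthest animals r was 0.32 for Fcgr2b and 0.26 for Ptpn6. Without animal 28 both missed it (adjusted p = 0.0511 for each), and 1 of 8 members was left. Tyrobp, Fcgr1 and Ptpn11 had r of 0.15, 0.08 and 0.09. Over 9741 genes the median r between the tissues was 0.13.

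**Figure D5:**
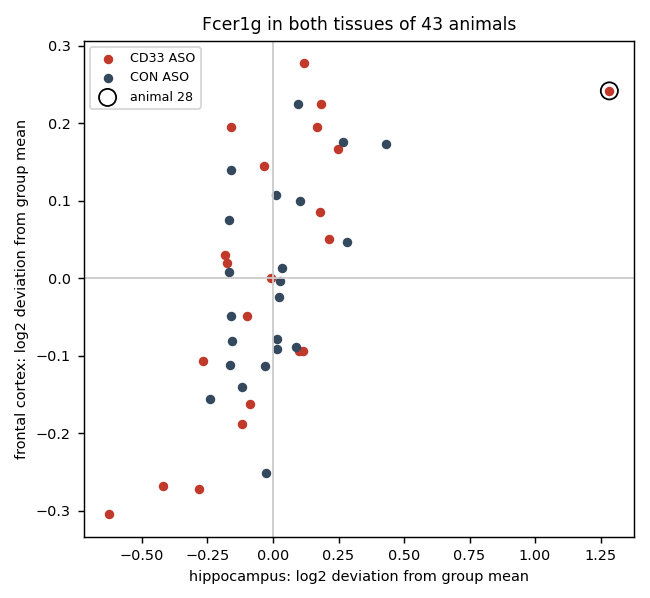
Deviation of Fcer1g from its group mean (log2) in frontal cortex (y axis) against hippocampus (x axis) in 43 animals, CD33 ASO and CON ASO, with animal 28 circled. The points run from lower left to upper right, with r = 0.60 over all animals and 0.64 without animal 28.

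The genes most like each member were taken as the 3 with the highest value of the lower r of the 2 tissues, over 46 frontal cortex and 44 hippocampus arrays, as a description without a test. For Tyrobp these were Ctsz, Abi3 and Fcrls, with r for Ctsz of 0.57 in frontal cortex and 0.68 in hippocampus. For Fcer1g they were C1qc (0.75 in frontal cortex and 0.85 in hippocampus), Fcgr2b and B2m. The Fc receptors were nearest to other genes in part: Fcgr3 to C1qc, C1qa and Ifi27l2a, Fcgr2b to Fcer1g, Cd63 and Cyba, and Fcgr1 to Eif2ak2 (0.63 in each tissue), Phf11d and Ifit3. Vav1 was nearest to Fcer1g, Anxa3 and Gusb. Ptpn6 lay closest to Cyba (0.69 in frontal cortex and 0.70 in hippocampus), Cxcl16 and Vamp8, and Ptpn11 to Sav1 (0.57 in frontal cortex and 0.58 in hippocampus), Khdc4 and Tpm3. These values share arrays, chips and normalization.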

How the data were processed

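The arrays were Illumina mouse bead arrays, 46 of frontal cortex and 44 of hippocampus. The authors' deposited probe table gives a signal intensity per probe and array, not normalized between arrays, and a detection p-value per probe. A second deposited table of the authors holds log2 values of 19542 probes, whose making is not given in the sources used here and which served as an alternative. BeadStudio, GenomeStudio and Partek are named, per the submitters' processing notes, without versions. For background correction and quantile normalization over 90 arrays, the neqc function (limma 3.58.1, R 4.3.3) was used, with negative controls inferred from the detection p-values and an offset of 16 before log2, which shrinks the fold changes of dim probes. The filter was a detection p-value below 0.01 on 9 or more arrays.

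The 14081 probes that passed entered limma's moderated test (lmFit, eBayes, 2-sided), p-values were adjusted by Benjamini-Hochberg over this whole table with a threshold of 0.05, and members and named list genes are printed. Each tissue had a fit of 4 group means, and comparisons between tissues used 90 arrays with animal as a random block (consensus correlation 0.120). Fold changes are CD33 ASO over CON ASO, frontal cortex over hippocampus, or 28 d over 14 d. The fit was tested on simulated data. Correlations used Python 3.11.15, numpy 2.4.6 and scipy 1.17.1. All members are named, with the passing genes of each list or else the 2 of lowest p, and for each member the 3 genes most like it; list genes named between tissues were picked with their values in view. The members, lists and tests were chosen with earlier results of these data known. Probes were named through the platform annotation, which can be old: 18348 had 1 symbol and 7349 are unnamed here. The number of arrays limits the precision. Alternatives were other background and scaling steps, the authors' values, no filter, 1 probe per gene, chip or replicate number as a block, and leaving out animal 7 or animal 28, the last chosen after seeing the data.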

Additional observations from a re-analysis of the deposited data

Results flagged for a closer look

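In the 4 groups of 9 arrays, 48 tests (12 probes in each group) looked for an array far from the others, and 2 found one, where chance flags about 1 in 20 groups. Fcer1g read 11.75 on the log2 scale in CON ASO 14 d hippocampus replicate 2, where the next highest array of the group read 11.35. Fcgr1 read 5.41 in CON ASO 14 d hippocampus replicate 5, where the next lowest read 6.42. Groups of 13 or 14 arrays were not put to this test, so the hippocampal array of animal 28 is outside it.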

How the results depend on the processing

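Under 9 alternatives, the count of member probes called stayed at 0 in all 13 comparisons other than that between tissues. Between tissues, where 10 of 12 were called, the count lay between 9 (chip as a random block) and 11 (median scaling, or no detection filter with 14 probes), and with 1 probe per gene it was 7 of 8. Of 520 member fold changes recomputed, 11 turned in sign, none of them a called value. In hippocampus at 28 days these were Fcer1g (-0.094), Fcgr3 (-0.0038) and a Ptpn11 probe (-0.0033) without animal 28, and a Ptpn11 probe with median scaling (0.0083). In hippocampus at 14 days they were Ptpn11 with chip as a block (0.018) and Vav1 with median scaling (0.0074). In frontal cortex they were Ptpn11 at 28 days without animal 7 (0.0043) or animal 28 (0.00085), and Fcgr2b at 14 days with median scaling (-0.015). Between tissues they were Ptpn11 probes with the authors' values (0.042) and with median scaling (-0.015). The cause was not tested. Pairs of members that passed, 40 of 56 over both tissues, stayed between 37 and 42. Members passing with Cd33 in hippocampus numbered 1, against 0 without animal 7, 0 without animal 28 and 2 with chip means removed, and between tissues 3 became 1 without animal 28. Among the ASO comparisons, counts over all probes moved by over 1.5 times in frontal cortex at 28 days, with 88 called with chip as a block against 49 (34 higher and 54 lower, against 16 and 33), and in hippocampus at 28 days, with 71 called with median scaling against 45 (47 higher and 24 lower, against 18 and 27). Averaged over durations, the splits were 65 higher and 31 lower with median scaling against 38 and 33 in hippocampus, and 20 and 43 against 36 and 49 in frontal cortex. Same-numbered replicates were not taken as pairs, and the values do not settle whether they are. The median correlation of deviations over 45 pairs was 0.11. It was over 0.1 in 15 of 23 frontal cortex pairs (10 of 14 at 28 days) and 9 of 22 hippocampus pairs. Of the 45, 10 correlated best with their own number among 9, 13 or 14 candidates, and whether that exceeds chance was not tested. With the replicate number as a block the members had 0 calls in each ASO comparison and 10 of 12 between tissues, and all probes had 70 calls in frontal cortex at 28 days, and 49 and 17 between durations in CD33 ASO and CON ASO frontal cortex, where 0 were called without it. Dim probes limit the comparison: the second probes of Fcgr2b and Ptpn6 were detected on 78 and 62 of 90 arrays.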
